A study of Mus musculus with 15 samples.

Results

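The jejunal epithelium of adult mice with a conditional Gata4 knockout (cKO) was compared with the ileal epithelium of adult wild-type CD1 mice. The samples were chosen by title: 3 arrays of cKO jejunum and 3 of wild-type ileum, together 6 of the 15 arrays in the series. Genes were named by a fixed rule, apart from Sis, Gstm3, Ces2a, Cyp2b10, Cd36, Slc46a1, Lrat, Hnf4a, Cdx2, Slc10a2, Slc51a, Slc51b, Slc13a1, Osr2, Foxa1, Duox2, Nos2, Hoxb1, Hoxb2, Hoxb3, Hoxb4 and Pla2g2a, which were chosen after their values were seen. The gene lists that the rule drew on were chosen with earlier results of these data known. Counts over these lists therefore describe and do not test. The comparison asks which jejunal genes stay above the ileal level in the knockout, and which ileal genes it does not reach. The jejunal epithelium of wild-type CD1 mice (3 arrays) gives the jejunal level of another set of mice. A control ileum (3 arrays, labelled only as adult control) gives a separate ileal level, and the ileum of Gata4 conditional knockin mice (cKI, 3 arrays) entered the fit only as a source of spread. In every group epithelial cells were isolated from the gut and their RNA was read on Affymetrix Mouse Gene 1.0 arrays. The labels give neither the strain of the cKO and control mice nor the Cre driver, the deleted exons or a jejunal control of the knockout's own line. Genotype and gut region therefore change together here, mouse stock may change with them, and their parts cannot be told apart. The labels leave unsaid whether replicate arrays stand for different mice. The p-values therefore weigh differences against the scatter of these samples alone, and that scatter may be technical.

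The small intestine changes along its length. Jejunal enterocytes carry the enzymes and carriers for sugar and fat absorption, and ileal enterocytes recover bile acids through a sodium-coupled carrier, the binding protein Fabp6 and a basolateral exporter. GATA4 is a zinc finger transcription factor of the proximal epithelium whose level falls towards the terminal ileum. Hox genes, which mark position along the gut, are stronger distally.

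Values are log2 signals, so a difference of 1 is a 2-fold change. A gene was tested where its highest group mean lay above 4.91, the median of all values, which 11784 genes did, and folds are left out for genes with either mean under that level. The array medians ran from 4.82 to 5. Replicates of cKO jejunum spread more widely than those of any other group, with a median SD of 0.193 against 0.129 to 0.142. At an adjusted p below 0.05 (limma, Benjamini-Hochberg over all genes tested), 384 genes (3.26%) were higher and 217 (1.84%) lower in cKO jejunum than in wild-type ileum. At least 2-fold differences made up 159 and 49 of these. Single arrays carried many of the calls: without the second wild-type ileum array 174 genes were higher and 105 lower, and without wild-type ileum array 3 these were 269 and 103. Without the first wild-type ileum array 120 were lower, and without the third cKO array 240 were higher. The fit of these 6 arrays alone called 209 and 90. Wild-type jejunum against wild-type ileum gave 1575 higher (13.4%) and 932 lower (7.91%) genes, and cKO jejunum against wild-type jejunum gave 609 higher (5.17%) and 901 lower (7.65%). These comparisons share arrays with the first and are set beside it only to place each gene.

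Gata4 itself read 9.72, 9.88 and 9.93 in cKO jejunum, 5.99, 5.43 and 5.39 in wild-type ileum, and 9.68, 9.45 and 9.47 in wild-type jejunum. Every cKO array lay above every ileal array and at the wild-type jejunal level. The difference from wild-type ileum was 4.24 (SE 0.185, adjusted p = 8.89e-09), and from wild-type jejunum 0.31 (adjusted p = 0.322). The labels do not say which part of the gene was deleted, so a signal averaged over probes along the transcript does not check the deletion. The jejunum is therefore called by its label, cKO, throughout.

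Lct, the brush border lactase that marks the jejunum, read 8.90, 6.81 and 7.08 in cKO jejunum and 12.04, 11.88 and 11.66 in wild-type jejunum. Its wild-type ileal values were 4.64, 4.85 and 4.69. The cKO arrays lay between the wild-type regions without touching either, 2.87 above ileum (SE 0.596, adjusted p = 0.0115) and 19.2-fold below jejunum (adjusted p = 0.000224). Against control ileum, where the second array reached 6.95, the difference was 1.61 (adjusted p = 0.0533). Fabp6, the ileal bile acid binding protein, read 12.88, 12.46 and 12.67 in cKO jejunum, 12.86, 12.58 and 12.59 in wild-type ileum and 4.08, 4.93 and 4.18 in wild-type jejunum. It was at the ileal level in full, with a difference of -0.01 (95% interval -0.52 to 0.50, adjusted p = 0.988). The defining markers thus placed the cKO jejunum with the ileum for Fabp6, with the jejunum for Gata4, and between them for Lct.

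**Figure D1:**
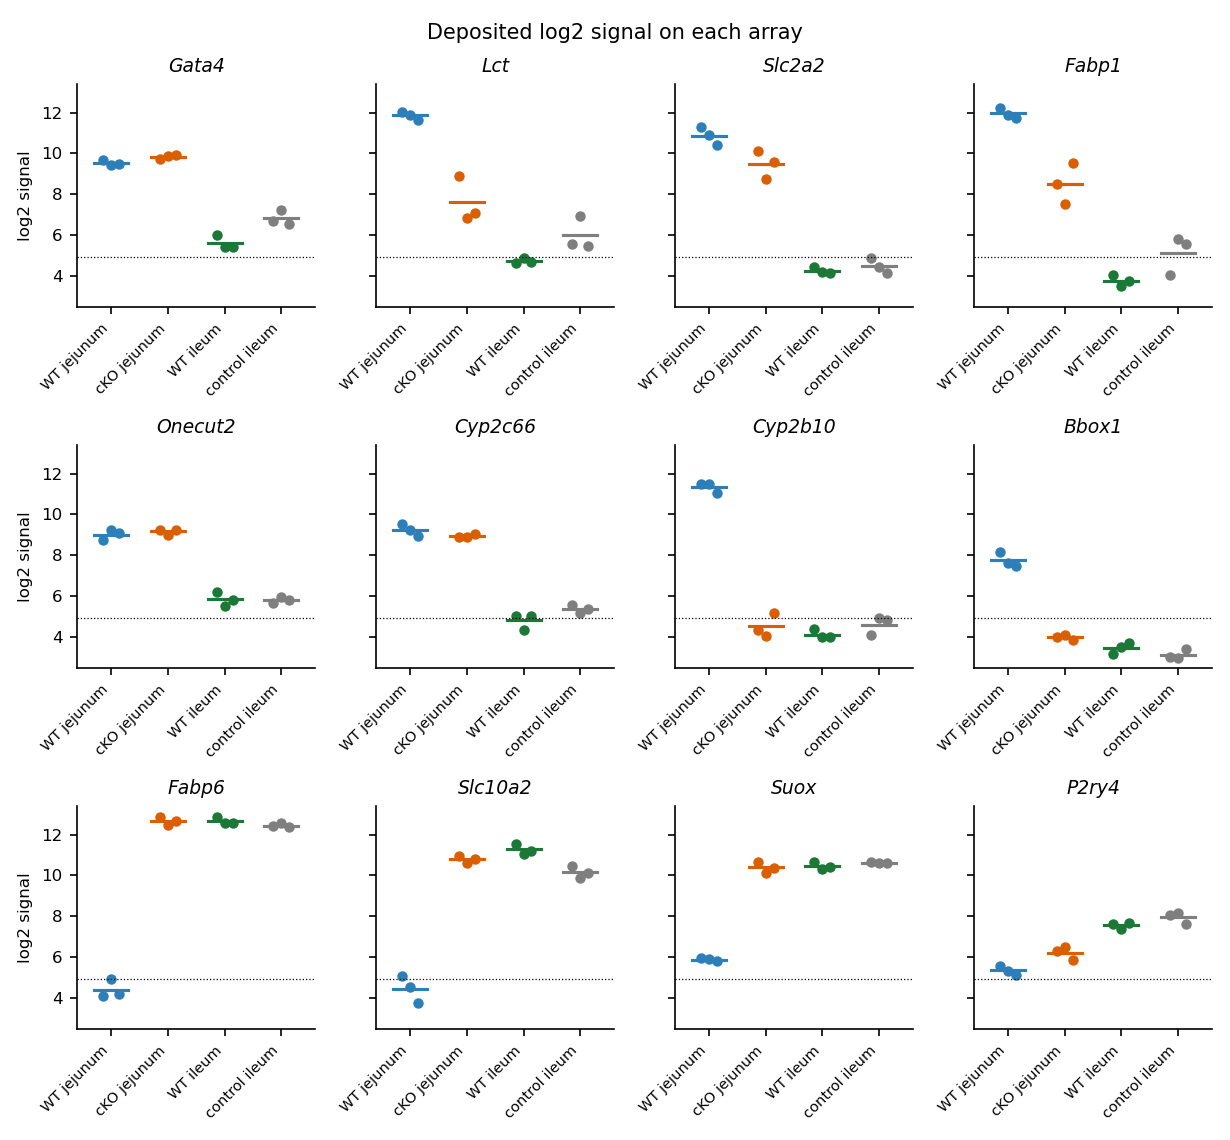
Deposited log2 signal on each of the 3 arrays (points) and the group mean (bar) for 12 genes in wild-type jejunum, cKO jejunum, wild-type ileum and control ileum; the dotted line is the level filter of 4.91. Slc2a2, Fabp1, Onecut2 and Cyp2c66 stay above both ilea in cKO jejunum, Cyp2b10 lies with both ilea and Bbox1 near wild-type ileum, Fabp6, Slc10a2 and Suox rise to them, and P2ry4 stays below them.

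Regional genes were taken from wild-type jejunum against control ileum, a contrast with no array in common with cKO jejunum against wild-type ileum. Both contrasts came from the same fit and shared its estimate of each gene's spread, so their calls are not independent. By an adjusted p below 0.05 and at least a 2-fold difference, 532 genes (4.51%) were jejunum-high and 491 (4.17%) ileum-high. Of the 532 jejunum-high genes, 165 (31%) were higher in cKO jejunum than in wild-type ileum, 9 (1.69%) were lower, and 255 (47.9%) were not called with a 95% interval inside 2-fold of the ileum. The remaining 103 (19.4%) were not called with a wider interval. Of the 491 ileum-high genes, 46 (9.37%) were lower, 5 (1.02%) were higher, 354 (72.1%) were not called and within 2-fold, and 86 (17.5%) had a wider interval. Over all genes tested, 90.9% were not called and within 2-fold. The median difference from wild-type ileum was 0.49 for jejunum-high genes, -0.15 for ileum-high genes and -0.01 for all genes. From wild-type jejunum the same medians were -0.76, 0.50 and -0.03. Without the second wild-type ileum array 95 jejunum-high genes were called higher, and 30 and 29 ileum-high genes were called lower without array 1 or array 3 of wild-type ileum. The small counts moved as well: jejunum-high genes called lower ranged from 3, without the second wild-type ileum array, to 9, without the second cKO array, and were 4 without cKO array 1 or wild-type ileum array 3 and 5 without the third cKO array. Ileum-high genes called higher ranged from 2, without the second wild-type ileum array, to 6, without the second cKO array, and were 3 without the first cKO or first wild-type ileum array. With control ileum as comparator, the arrays of which also chose the regional genes, 323 jejunum-high genes were called higher and 345 ileum-high genes lower, with 97 ileum-high genes within 2-fold. With the arrays swapped (regional genes from wild-type jejunum against wild-type ileum, tested against control ileum), 72 of 233 ileum-high genes were lower and 104 within 2-fold. Control ileum and wild-type ileum differed widely: 3290 genes (27.9%) differed between them (both directions together). A regional gene chosen against control ileum can reflect the gut region or the set of mice. Between the wild-type regions, both of CD1 mice, the median difference was 1.37 for jejunum-high genes and -0.68 for ileum-high genes. Among the 10 jejunum-high genes with the largest regional difference that lay within 2-fold of the ileum, 7 were small RNA genes whose means were low in control and cKI ileum and high in the other 3 groups. Snord22, a small nucleolar RNA, for example, read 10.47, 10.60 and 10.83 in cKO jejunum and 10.64, 10.20 and 10.72 in wild-type ileum, but 5.21, 4.62 and 5.24 in control ileum and 5.50, 4.79 and 5.09 in cKI ileum.

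**Figure D2:**
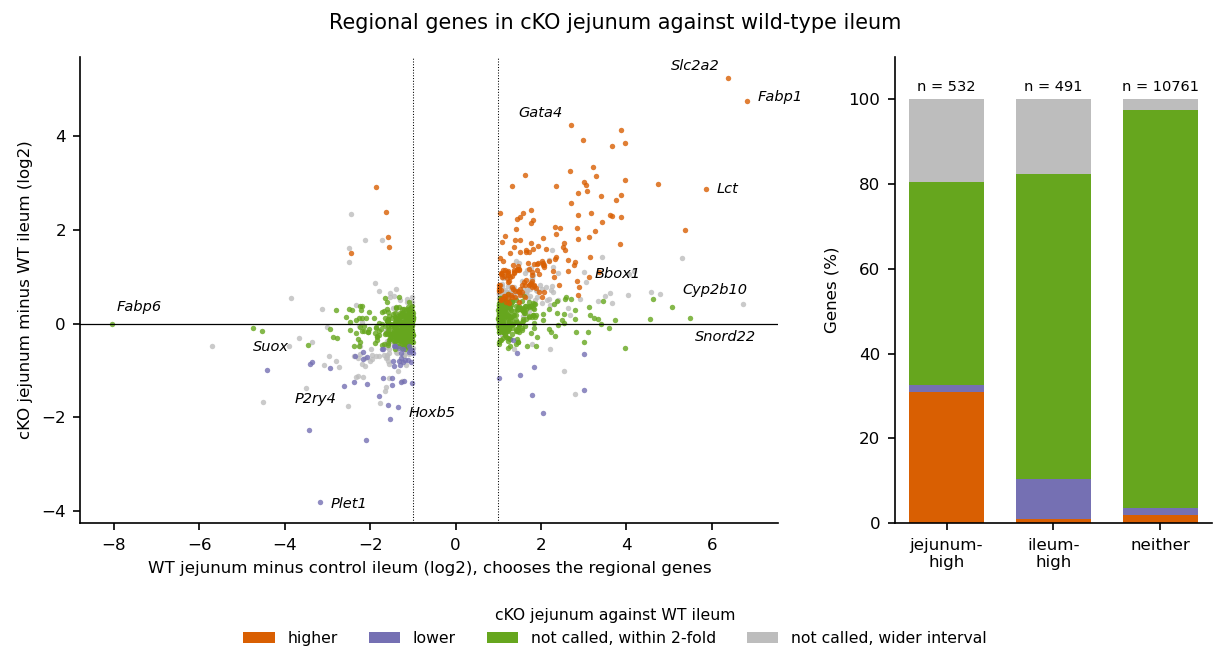
Left, each regional gene by its difference between wild-type jejunum and control ileum (x, log2, which chose it) and between cKO jejunum and wild-type ileum (y, log2); dotted lines mark the 2-fold limits. Right, the share of genes in each class: 31% of jejunum-high genes were called higher and 9.37% of ileum-high genes called lower.

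The largest difference in the whole comparison belonged to Slc2a2, the facilitative glucose transporter GLUT2. It read 10.11, 8.76 and 9.56 in cKO jejunum against 4.42, 4.17 and 4.12 in wild-type ileum and 11.27, 10.91 and 10.43 in wild-type jejunum. All cKO arrays lay far above both ilea, by 5.24 from wild-type ileum (SE 0.481, adjusted p = 2.49e-05). Every cKO array also lay below every wild-type jejunal array, a gap of -1.39 that was not called (adjusted p = 0.0735). Slc2a5, the fructose transporter GLUT5, kept an intermediate level: 8.81, 7.28 and 8.62 against 5.65, 5.19 and 5.96 in ileum and 10.25, 9.99 and 9.84 in jejunum. It was 6.23-fold above wild-type ileum (adjusted p = 0.00133) and 3.46-fold below wild-type jejunum (adjusted p = 0.00622). Of the 13 tested genes for brush border sugar digestion and hexose transport, 7 were higher and 0 lower, with a median difference of 1.05. Without the second wild-type ileum array 4 were higher. Sis, the sucrase-isomaltase, was 2.07-fold higher (adjusted p = 0.0118) and at the wild-type jejunal level, though without the second wild-type ileum array the adjusted p was 0.0648. Slc5a11, a sodium-coupled inositol and glucose transporter, was 2.31-fold higher (adjusted p = 0.00889), but 0.56 above control ileum (adjusted p = 0.0889).

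Promoters are shown for Slc2a2 and Lct, which lay between the wild-type regions, and for Bbox1 and Fabp6, not called different from wild-type ileum. Each runs from 250 bases before to 50 after the start of transcription (RefSeq, GRCm38.p6). Capitals mark matches to the GATA factor motif on either strand. Its searched forms were AGATAA and, with another last base, AGATAG, beside the form TGATAA and, changed in the same way, TGATAG.
Slc2a2, chr3:28697653-28697952, plus strand: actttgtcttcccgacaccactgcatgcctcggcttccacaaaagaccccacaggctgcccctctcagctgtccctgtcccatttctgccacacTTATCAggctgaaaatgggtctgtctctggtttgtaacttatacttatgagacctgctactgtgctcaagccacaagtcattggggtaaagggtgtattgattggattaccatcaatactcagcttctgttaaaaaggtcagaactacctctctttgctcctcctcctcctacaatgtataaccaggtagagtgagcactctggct
Lct, chr1:128328269-128328568, minus strand: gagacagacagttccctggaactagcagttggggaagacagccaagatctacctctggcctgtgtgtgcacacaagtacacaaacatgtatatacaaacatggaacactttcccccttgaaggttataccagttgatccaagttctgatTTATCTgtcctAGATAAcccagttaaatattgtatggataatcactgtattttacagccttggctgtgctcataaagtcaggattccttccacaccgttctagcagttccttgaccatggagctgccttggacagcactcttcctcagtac
Bbox1, chr2:110305676-110305975, minus strand: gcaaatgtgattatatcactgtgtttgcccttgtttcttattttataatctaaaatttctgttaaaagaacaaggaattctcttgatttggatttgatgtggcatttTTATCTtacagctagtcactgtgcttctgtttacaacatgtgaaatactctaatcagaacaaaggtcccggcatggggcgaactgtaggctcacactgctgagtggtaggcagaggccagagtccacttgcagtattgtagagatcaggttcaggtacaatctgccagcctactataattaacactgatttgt
Fabp6, chr11:43601513-43601812, minus strand: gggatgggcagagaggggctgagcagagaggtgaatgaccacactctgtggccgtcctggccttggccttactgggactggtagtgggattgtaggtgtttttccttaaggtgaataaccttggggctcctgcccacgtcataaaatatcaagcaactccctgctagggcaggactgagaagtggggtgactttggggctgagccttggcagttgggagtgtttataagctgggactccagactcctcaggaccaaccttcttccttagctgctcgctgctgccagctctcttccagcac
Slc2a2 and Bbox1 hold 1 match each, Lct holds 2 and Fabp6 none. The promoters of Apoa4 and Cyp2c66, also higher than wild-type ileum, and of Suox were read too and hold none. A match is a description of letters and not a site of binding. Such a match stood in 35.6% of the 174 promoters found for jejunum-high genes that were still higher in cKO jejunum, in 21% of the 243 for jejunum-high genes within 2-fold of the ileum, and in 19% of the 11933 for all genes tested. It stood in 21.8% of 354 promoters of ileum-high genes within 2-fold of the ileum and in 2 of 41 (4.88%) of those still lower. Over all 32851 promoters in the table the share was 29.8%.

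Of 11 tested genes of fructose breakdown and gluconeogenesis, 6 were higher, 0 lower and 5 not called (median 0.79). The count higher was 3 without the first cKO, the third cKO or the second wild-type ileum array. Fbp1, fructose bisphosphatase, read 8.2, 7.73 and 7.95 in cKO jejunum against 5.83, 5.70 and 5.73 in wild-type ileum, a 4.62-fold difference (adjusted p = 3.9e-06), with no overlap between the groups. G6pc, the glucose-6-phosphatase, was 7.62-fold higher (adjusted p = 0.000724), and Khk, ketohexokinase, 2.38-fold higher (adjusted p = 0.00219). Fbp1 and G6pc were not called against wild-type jejunum (adjusted p = 0.0563 and 0.118), while Khk remained 1.8-fold below it (adjusted p = 0.00982).

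Fat handling was kept in part. Fabp1, the liver-type fatty acid binding protein, read 8.52, 7.52 and 9.51 in cKO jejunum, 4.04, 3.51 and 3.74 in wild-type ileum and 12.23, 11.89 and 11.75 in wild-type jejunum. It lay 4.75 above ileum (SE 0.645, adjusted p = 0.000724) and 10.8-fold below jejunum (adjusted p = 0.00232), with no overlap on either side. Apoa4, a chylomicron apolipoprotein, was 14.4-fold above wild-type ileum (12.86, 11.82 and 12.29 against 9.56, 7.39 and 8.47, adjusted p = 0.000991) and not called against jejunum (adjusted p = 0.241). Apoc3, an inhibitor of lipoprotein lipase, was 7.16-fold higher (adjusted p = 0.003), with 1.21 against control ileum (adjusted p = 0.065). Abcg8, part of the sterol exporter, was 2.15-fold higher (adjusted p = 0.0057) and level with jejunum. In all, 3 of 13 fat uptake genes and 5 of 20 triglyceride and chylomicron genes were higher and none lower, with medians of 0.54 and 0.43. The triglyceride count was 2 without cKO array 1 or 3 or wild-type ileum array 2, and 3 without wild-type ileum array 3. Fatty acid oxidation and ketogenesis had 13 higher and 0 lower of 22 (median 0.55), and 6 higher without the second wild-type ileum array. Pdk4, a kinase that shuts off pyruvate dehydrogenase, stood 1.69 above ileum (adjusted p = 0.00149), and Crot, a peroxisomal carnitine acyltransferase, was 2.41-fold higher (adjusted p = 0.00408). Vnn1, a pantetheinase, was 5.85-fold higher than wild-type ileum (adjusted p = 0.000713) but only 0.72 above control ileum (adjusted p = 0.128).

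Drug-metabolizing enzymes held 15 higher and 0 lower genes of 33 (median 0.70). Cyp2c66, a cytochrome P450, was almost wholly jejunal: 8.91, 8.88 and 9.02 in cKO jejunum against 5.03, 4.34 and 5.03 in wild-type ileum and 9.51, 9.23 and 8.93 in wild-type jejunum. The difference from ileum was 4.14 (SE 0.23, adjusted p = 9.38e-08) and from jejunum -0.29 (adjusted p = 0.483). Cyp2c65 of the same family was 15.1-fold higher (adjusted p = 1.48e-05), and the glutathione transferases Gstm3 and Gstm1 were 7.79-fold and 3.78-fold higher (adjusted p = 0.000209 and 7.84e-05). Paralogs of these families may share probes, so neighbours are not separate evidence. Ugt2a3, a glucuronosyltransferase, was 8.14-fold above ileum (adjusted p = 2.63e-05) and 2.89-fold below jejunum (adjusted p = 0.00199). Among 13 retinoid genes 5 were higher and 1 lower (median 0.39). Against control ileum 2 were higher, beside 1233 of all 11784 genes tested. With any 1 of the 6 arrays left out except cKO array 3, 0 were lower. Aldh1a1, a retinaldehyde dehydrogenase, was 2.96-fold higher (adjusted p = 0.00339). Adh1, an alcohol dehydrogenase, was 5.18-fold higher (adjusted p = 0.00222), and Rdh7, a retinol dehydrogenase, 4.17-fold higher (adjusted p = 0.0035). Against control ileum Adh1 and Rdh7 differed by 0.92 and 0.13 (adjusted p = 0.076 and 0.814). Adh6a, another alcohol dehydrogenase, was 13.8-fold above wild-type ileum (adjusted p = 4.57e-05), at 9.73, 8.66 and 9.71 against 5.95, 5.24 and 5.56.

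**Figure D3:**
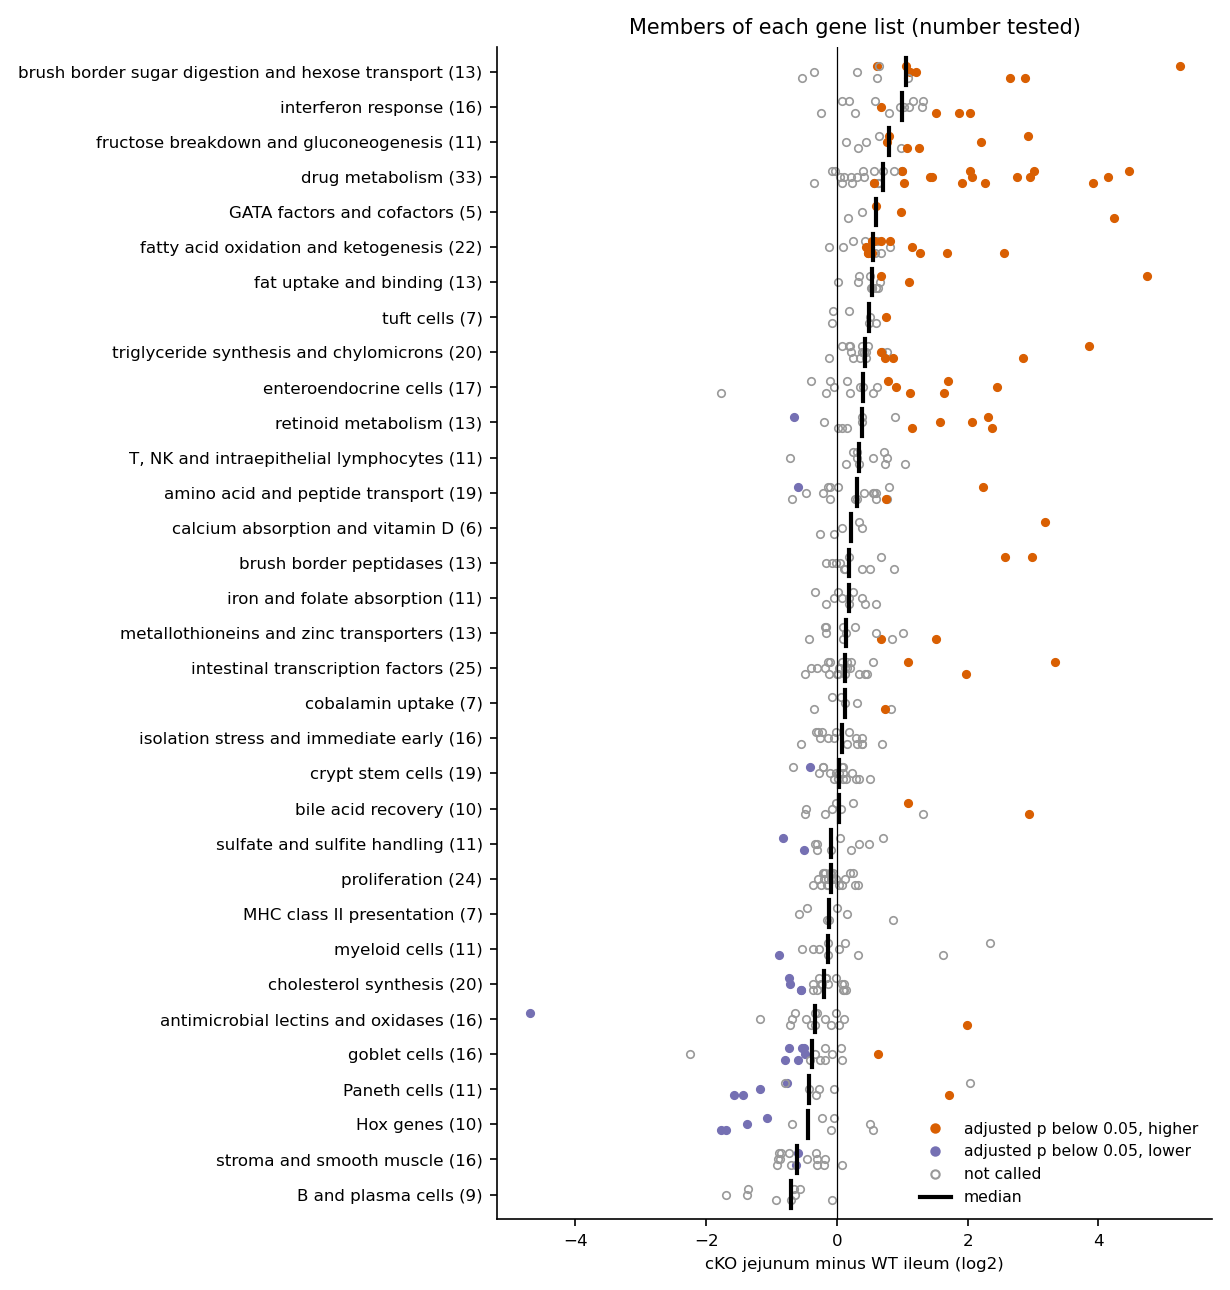
Difference between cKO jejunum and wild-type ileum (log2) for each tested member of the gene lists with at least 5 tested members, ordered by the median (black bar). Filled points passed an adjusted p below 0.05: sugar digestion and hexose transport has 7 of 13 higher, fatty acid oxidation 13 of 22 higher, and Hox genes 4 of 10 lower.

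Onecut2, a homeodomain transcription factor of the proximal gut, kept its jejunal level. It read 9.24, 9.01 and 9.25 in cKO jejunum, 6.18, 5.53 and 5.78 in wild-type ileum and 8.74, 9.21 and 9.08 in wild-type jejunum. The cKO arrays overlapped the jejunal ones and lay clear of the ileal ones, 10.1-fold above ileum (adjusted p = 3.4e-08). Of 25 intestinal transcription factors 3 were higher and 0 lower. Creb3l3, a regulator of triglyceride metabolism, was 3.94-fold higher (adjusted p = 0.0102), though without the second wild-type ileum array the adjusted p was 0.0563. Nr0b2 (SHP), a corepressor induced by bile acid signalling, was 1.09 higher (adjusted p = 0.00537) and also 1.00 above wild-type jejunum (adjusted p = 0.0035), but 0.39 above control ileum (adjusted p = 0.149). The general epithelial regulators Hnf4a and Cdx2 differed from ileum by 0.22 and -0.11 (adjusted p = 0.331 and 0.77). Among the GATA genes, Gata6 was 1.5-fold above wild-type ileum (9.31, 9.33 and 9.38 against 8.77, 8.71 and 8.78, adjusted p = 0.00339) but 0.03 from control ileum (adjusted p = 0.851). The gap for Gata5 was 0.39 (adjusted p = 0.252). Zfpm1 (FOG1), a GATA cofactor, was 1.98-fold above ileum (adjusted p = 0.00118) and 1.59-fold below wild-type jejunum.

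Several genes were higher in cKO jejunum than in both wild-type regions. Cyp2c55, another cytochrome P450, read 8.71, 8.90 and 7.90, against 5.84, 3.01 and 3.24 in wild-type ileum and 5.43, 5.68 and 5.95 in wild-type jejunum. Every cKO array exceeded all 6 wild-type arrays, by 4.47 over ileum (adjusted p = 0.000487) and 7.05-fold over jejunum (adjusted p = 0.00403). S100g, the vitamin D responsive calcium binding protein calbindin-D9k, was 9.08-fold above ileum (adjusted p = 0.000306) and 3.69-fold above jejunum, at 9.80, 8.39 and 9.14. Ghrl, the precursor of the hormone ghrelin, was 5.48-fold above ileum (8.06, 8.36 and 8.09 against 5.73, 5.58 and 5.83, adjusted p = 9.84e-06) and 3.66-fold above jejunum. Mt1, a metallothionein that binds zinc, was 2.86-fold above ileum (adjusted p = 0.000234) and 1.94-fold above jejunum, and Ces2a, a carboxylesterase, 4.19-fold and 2.76-fold.

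Other jejunal genes lay well below wild-type jejunum. Of those named here, all but Reg1 were not called against wild-type ileum. Cyp2b10, a cytochrome P450 induced by the receptor CAR, read 11.49, 11.48 and 11.03 in wild-type jejunum but 4.32, 4.04 and 5.18 in cKO jejunum, against 4.37, 3.97 and 3.97 in wild-type ileum. The cKO and ileal arrays overlapped and differed by 0.41 (95% interval -0.30 to 1.11, adjusted p = 0.542), while cKO lay 6.82 below jejunum on the log2 scale (adjusted p = 5.54e-09). Bbox1, the last enzyme of carnitine synthesis, whose promoter is printed above, read 4.0, 4.10 and 3.83 against 3.15, 3.52 and 3.71 in ileum and 8.14, 7.63 and 7.46 in jejunum. Its difference from wild-type ileum was 0.52 (adjusted p = 0.139), although against control ileum it was 0.86 (adjusted p = 0.00325), with all these levels below the filter. Cd36, a fatty acid translocase, differed from ileum by 0.63 (interval -0.15 to 1.41, adjusted p = 0.363) and fell by 4.87 from jejunum on the log2 scale. Car2, a carbonic anhydrase, differed from ileum by 0.08 (adjusted p = 0.944), at 4.36, 4.50 and 5.06 against 4.85, 4.05 and 4.79, and read 7.13, 9.21 and 8.49 in jejunum. Cym, a milk-clotting aspartic protease, was at 5.23, 5.08 and 4.94 in cKO jejunum and 8.69, 7.94 and 8.30 in wild-type jejunum, with 0.10 between cKO jejunum and ileum (adjusted p = 0.776). Slc46a1, the proton-coupled folate transporter, was 9.02-fold below wild-type jejunum and 0.59 from ileum (interval 0.10 to 1.07, adjusted p = 0.165). Lrat, which esterifies retinol, was 4.27-fold below jejunum and -0.20 from ileum (interval -0.58 to 0.19). Reg1, a secreted lectin, stood 1.99 above wild-type ileum (adjusted p = 0.00525) and 34.4-fold below jejunum, and 0.28 from control ileum (adjusted p = 0.6).

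On the ileal side, the carriers of bile acid recovery were not called different from wild-type ileum. Slc10a2, the apical sodium-dependent bile acid transporter, read 10.94, 10.60 and 10.81 in cKO jejunum, 11.56, 11.04 and 11.21 in wild-type ileum and 5.07, 4.55 and 3.73 in wild-type jejunum. All cKO arrays were far from the jejunal ones (a difference of 6.34, adjusted p = 4.51e-09) and just below the ileal ones, at -0.48 (95% interval -1.10 to 0.14, adjusted p = 0.388). Against control ileum, at 10.44, 9.89 and 10.12, every cKO array lay above instead, by 0.64 (adjusted p = 0.109). Slc51a and Slc51b, the subunits of the basolateral bile acid exporter, differed from ileum by 0.25 and -0.19 (adjusted p = 0.508 and 0.695), and from control ileum with the opposite sign, by -0.42 and 0.46 (adjusted p = 0.0984 and 0.129). Nr1h4 (FXR), the bile acid receptor, differed by -0.49 (adjusted p = 0.101) and from control ileum by 0.21 (adjusted p = 0.346). Fgf15, the hormone that FXR induces, spread widely at 9.36, 6.72 and 8.40 against 8.28, 5.91 and 6.36, a difference of 1.31 (interval -0.04 to 2.66, adjusted p = 0.271). Abcc2, a canalicular and jejunal exporter of conjugates counted in the same list, remained jejunal instead: it was 7.66-fold above ileum (10.33, 9.59 and 9.66 against 7.89, 6.36 and 6.51, adjusted p = 0.000841). Of the 10 tested genes in this list 2 were higher, Abcc2 and Nr0b2, and 0 lower, with a median of 0.03.

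Suox, the sulfite oxidase, also read at the ileal level, at 10.67, 10.13 and 10.36 against 10.66, 10.33 and 10.43, and was 22.7-fold above wild-type jejunum (5.96, 5.89 and 5.78). Its difference from ileum was -0.09 (adjusted p = 0.805). Tmigd1, an immunoglobulin domain protein of the brush border, differed from ileum by -0.16 (adjusted p = 0.815) and was 23.4-fold above jejunum. Lpcat4, a lysophospholipid acyltransferase, Naaladl1, an ileal peptidase, and Gsdmc2, a gasdermin, differed from ileum by 0.28, 0.13 and 0.32 (adjusted p = 0.489, 0.79 and 0.549) and were 6.45-fold, 5.59-fold and 5.07-fold above jejunum. Mgat4c, a glycosyltransferase, differed by -0.45 (adjusted p = 0.118), and without the third cKO array by -0.64 (adjusted p = 0.0239). Trpm6, a magnesium channel, and Sqor, a sulfide oxidase, differed from wild-type ileum by -0.11 and -0.28 (adjusted p = 0.84 and 0.217), but were lower than control ileum by -1.19 and -0.58 (adjusted p = 0.00177 and 0.00246). Slc13a1, the sulfate transporter, was 4.71-fold above jejunum and 0.04 from ileum (adjusted p = 0.959). The transcription factors Osr2 and Foxa1 lay 0.04 and -0.13 from wild-type ileum (adjusted p = 0.935 and 0.61), and Foxa1 stood 0.46 above control ileum (adjusted p = 0.011). Duox2 and Nos2, which make hydrogen peroxide and nitric oxide, differed from ileum by -0.40 and -0.30 (adjusted p = 0.625 and 0.707) and were 12.7-fold and 11-fold above jejunum. Of 20 cholesterol synthesis genes 15 were above wild-type jejunum, while against wild-type ileum 0 were higher and 4 lower (median -0.20). The count lower was 1 without the first cKO or first wild-type ileum array and 2 without the second cKO array. Pmvk, phosphomevalonate kinase, was 1.66-fold lower (adjusted p = 0.0031) but 0.23 above control ileum (adjusted p = 0.168).

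Other ileum-high genes stayed below wild-type ileum. P2ry4, a nucleotide receptor, read 6.30, 6.51 and 5.83 against 7.64, 7.35 and 7.68 in wild-type ileum, 8.07, 8.17 and 7.61 in control ileum and 5.58, 5.33 and 5.14 in wild-type jejunum. The cKO arrays stood between jejunum and ilea with no overlap, 2.53-fold below wild-type ileum (adjusted p = 0.000727). Tceal8, a small protein related to elongation factor SII, was 2.9-fold below wild-type ileum (4.98, 4.97 and 5.48 against 6.46, 6.88 and 6.70, adjusted p = 0.00169). Capn2, a calpain protease, was 2.47-fold lower (adjusted p = 0.00625). Bex1 was 1.74 lower on the log2 scale (adjusted p = 0.00682), and 0.0526 was its adjusted p in the fit of the 6 arrays alone. Scd1, the stearoyl-CoA desaturase, read 4.41, 3.65 and 4.49 against 7.05, 5.81 and 6.52 (a difference of -2.27, adjusted p = 0.0166). Its adjusted p rose to 0.0563 without the second cKO array, to 0.0688 without the first wild-type ileum array and to 0.0542 without array 3. Plet1, a membrane protein of keratinocytes and gut, differed by -3.81 (adjusted p = 0.0323). No call was left for Plet1 without the first or second cKO array or without any single wild-type ileum array (adjusted p from 0.0549 to 0.142), or against control ileum (adjusted p = 0.114).

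Of 30 Hox genes named on the arrays, 10 passed the level filter and were tested. Among these, 4 of the Hoxb cluster were lower in cKO jejunum and 0 were higher (median -0.45). A gene below the filter in cKO jejunum is tested only where another group is higher, so the count describes the tested genes alone. Hoxb5 read 3.71, 4.28 and 4.28 in cKO jejunum against 6.02, 6.12 and 5.46 in wild-type ileum (a difference of -1.78, adjusted p = 0.00053), and Hoxb9 read 5.54, 5.80 and 5.79 against 7.30, 7.71 and 7.21 (-1.69, adjusted p = 0.00177). Hoxb6 and Hoxb7 were lower by -1.37 and -1.07 (adjusted p = 0.000259 and 0.00195). None of these 4 was called against wild-type jejunum (adjusted p from 0.0911 to 0.607). Hoxb1, Hoxb2, Hoxb3 and Hoxb4, chosen after their values were seen, differed from wild-type ileum by -0.04, 0.55, -0.68 and -0.23 and were not called (adjusted p = 0.909, 0.201, 0.0755 and 0.562). Mir196a-1, a microRNA gene of the same cluster, read 3.56, 3.96 and 4.18 against 5.99, 6.16 and 5.91 (a difference of -2.12, adjusted p = 2.58e-06). Its mature sequence is printed because it names the product, with the seed, bases 2 to 8, in capitals (RefSeq, GRCm38.p6, chr11:96265187-96265208, plus strand).
mmu-miR-196a-5p: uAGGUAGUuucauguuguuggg
The array signal is of the gene and does not measure the mature strand. On every cKO array Hoxb5 and Mir196a-1 read below the filter level of 4.91, so other groups brought them into the test. Against control ileum, Hoxb5 stayed lower by -0.82 (adjusted p = 0.0146), whereas Hoxb6, Hoxb7 and Hoxb9 differed by -0.22, -0.08 and -0.19 (adjusted p = 0.323, 0.765 and 0.613) and Mir196a-1 by 0.21 (adjusted p = 0.311).

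Most of the strongest falls also depended on the ileum compared. Car1, a carbonic anhydrase of the distal gut, read 4.41, 4.81 and 5.06 in cKO jejunum against 10.26, 9.53 and 8.34 in wild-type ileum (a difference of -4.62, adjusted p = 2.71e-06). Control ileum read 4.50, 4.39 and 3.98 for Car1, so all arrays outside wild-type ileum in these groups were low, and the difference from control was 0.47 (adjusted p = 0.317). Saa1, an acute phase protein, differed from wild-type ileum by -4.70 (3.62, 3.75 and 6.49 against 8.78, 9.51 and 9.68, adjusted p = 0.00581) and from control ileum by -0.88 (adjusted p = 0.47). St6galnac6, a sialyltransferase, and Cd177, a cell surface glycoprotein, were 5.58-fold and 4.1-fold below wild-type ileum (adjusted p = 0.00262 and 0.000713), with -0.44 and -0.70 against control ileum (adjusted p = 0.44 and 0.0667). Casp4, an inflammatory caspase, was 3.57-fold lower (7.56, 6.44 and 6.65 against 8.66, 8.77 and 8.72, adjusted p = 0.00229) and kept its call against control ileum.

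**Figure D4:**
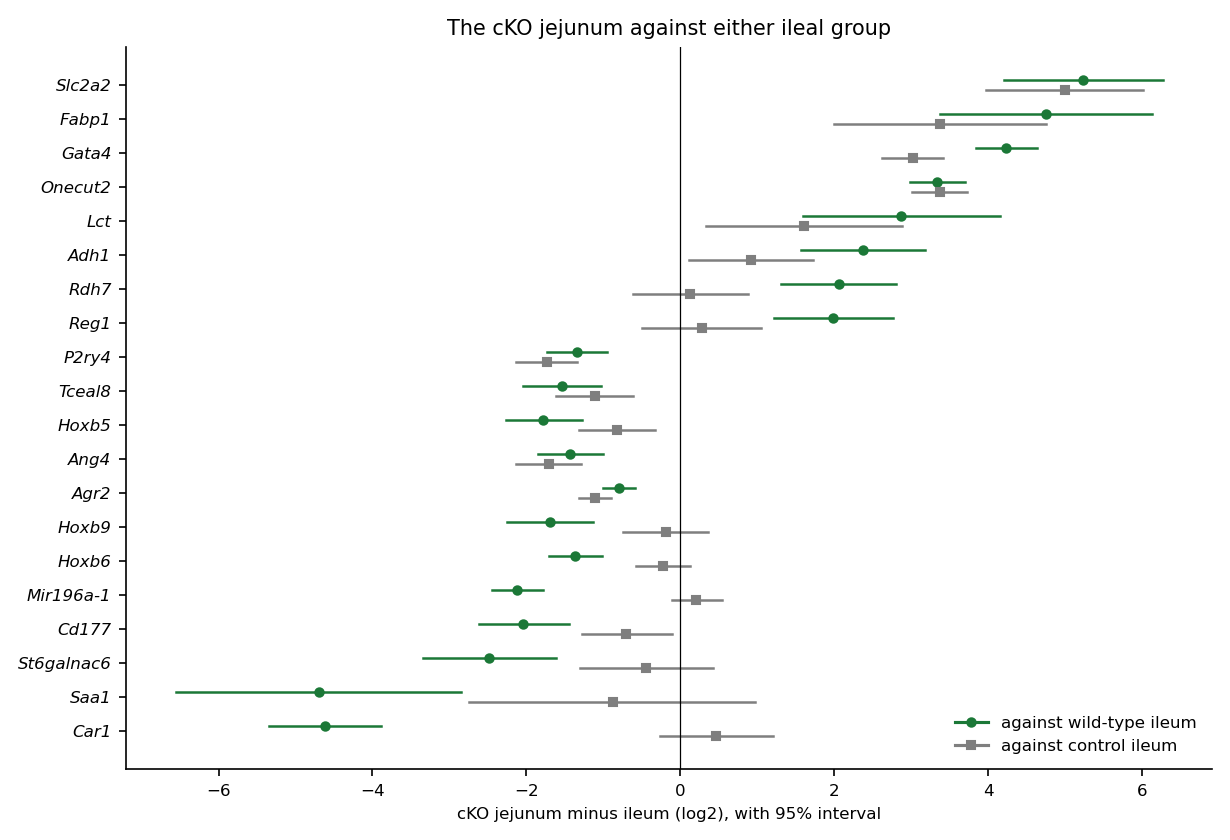
Difference between cKO jejunum and each ileal group (log2, point) with its 95% interval (line) for 20 genes; the comparisons share the cKO arrays. Slc2a2, Gata4 and Onecut2 are high and P2ry4, Tceal8, Hoxb5, Ang4 and Agr2 are low against both, whereas Car1 is at -4.62 against wild-type ileum and 0.47 against control ileum.

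Some markers of secretory cells were lower and others higher, and in bulk samples fewer cells of a type and less RNA per cell cannot be told apart. Of 16 goblet cell genes 6 were lower and 1 higher (median -0.38). Without the first or the second wild-type ileum array 3 were lower, and 0 were higher without cKO array 1 or 3 or wild-type ileum array 2 or 3. Agr2, a disulfide isomerase for mucins, read 11.36, 11.56 and 11.45 against 12.27, 12.24 and 12.25 (1.74-fold lower, adjusted p = 0.000271), with no overlap, and stayed lower against control ileum. Spdef, a goblet cell transcription factor, was 1.66-fold lower (adjusted p = 0.00262) but 0.15 above control ileum (adjusted p = 0.369). The summed goblet signal was 15.07 to 15.25 in cKO jejunum, 15.39 to 15.51 in wild-type ileum and 14.66 to 14.95 in wild-type jejunum. Of 11 Paneth cell genes 4 were lower and 1 higher (median -0.43, from -1.57 to 2.03). The summed Paneth signal overlapped between groups, at 13.43 to 14.1 in cKO jejunum, 13.7 to 14.34 in wild-type ileum and 13.43 to 13.99 in wild-type jejunum. Ang4, an antimicrobial ribonuclease, was 2.69-fold below wild-type ileum (8.15, 7.87 and 7.74 against 9.21, 9.38 and 9.46, adjusted p = 0.000727) and 2.81-fold below wild-type jejunum. Nupr1, a stress-induced chromatin protein in the same list, was 2.26-fold lower (adjusted p = 0.00236), and Rnase1, a ribonuclease, was 1.72 higher (adjusted p = 0.0117), with 0.72 against control ileum (adjusted p = 0.142). Of 17 enteroendocrine genes 6 were higher and 0 lower (median 0.40), led by Ghrl, while against control ileum 1 was higher and 5 lower. The members ran from -1.77 to 2.45 against wild-type ileum. With 1 of the 6 arrays left out 4 to 6 were higher, and 1 was lower without cKO array 3. Nts, Cck and Gip, which encode neurotensin, cholecystokinin and the incretin GIP, were 3.13-fold, 2.17-fold and 3.25-fold above wild-type ileum (adjusted p = 0.00258, 0.00449 and 0.0055). Against control ileum they differed by 0.07, -0.05 and -0.71 (adjusted p = 0.867, 0.875 and 0.0945). Of 24 proliferation genes none was called against wild-type ileum, with all 24 within 2-fold, and 9 were lower than control ileum. Over all 11784 genes tested, 1233 were higher and 2436 lower than control ileum. Of 19 crypt stem cell genes 0 were higher and 1 lower, and 0 were lower with any 1 of the 6 arrays left out except cKO array 1.

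Markers of other cells moved beside these results. The summed signal of 10 B and plasma cell genes was 7.87 to 7.92 in cKO jejunum, 8.49 to 8.92 in wild-type ileum and 7.82 to 8.02 in wild-type jejunum, and 0 of its 9 tested members were called (median -0.70), against 6 lower than control ileum. That of 20 stromal and smooth muscle genes was 9.23 to 9.47, 9.64 to 10.05 and 9.01 to 9.19, with 2 of 16 tested members lower and none higher (median -0.61). That count was 0 without cKO array 3 or wild-type ileum array 1 or 3, and 12 against control ileum. Over all 11784 genes tested, 2436 were lower than control ileum. For 18 interferon response genes the sums were 11.46 to 11.99, 10.80 to 11.21 and 11.89 to 12.51, with 4 of 16 tested members higher and none lower (median 1.00). The count higher was 0 without wild-type ileum array 2 or against control ileum, and 1 without cKO array 1 or 3 or wild-type ileum array 3. Their part in the results above was not tested. Ifit1, an interferon-induced RNA binding protein, was 3.66-fold above wild-type ileum (adjusted p = 0.0094), but 0.0526 was its adjusted p without the second wild-type ileum array, and it lay 0.21 from control ileum (adjusted p = 0.707). Of 11 T cell, NK cell and intraepithelial lymphocyte genes 0 were called, but only 1 had an interval within 2-fold of wild-type ileum. Their median was 0.34, from -0.72 to 1.04, so the lack of calls does not show that levels were the same.

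Some regional genes went against their class. Of the jejunum-high genes 1.69% were lower than wild-type ileum, beside 1.84% of all genes tested. Of the ileum-high genes 1.02% were higher, beside 3.26% of all genes tested. Among the 9 jejunum-high genes below wild-type ileum, Rnu3a, a small nucleolar RNA gene, was 2.88-fold lower (adjusted p = 0.0053) and Fut11, a fucosyltransferase, 2.25-fold lower (adjusted p = 0.00327). They differed from control ileum by 0.35 and 0.28 (adjusted p = 0.355 and 0.3). Among the 5 ileum-high genes above wild-type ileum were Nts and D17H6S56E-5, an expressed sequence in the region of the major histocompatibility complex, which was 5.25-fold higher (adjusted p = 0.003) and 0.51 from control ileum (adjusted p = 0.351). Among 6571 tested transcript clusters that carry no single gene name, 39 were higher and 25 lower in cKO jejunum than in wild-type ileum.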

How the data were processed

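The authors deposited one log2 signal per transcript cluster and array, processed with Partek Genomic Suite per the labels; the background correction and normalization are not given in the sources used here. Of 35556 clusters, 21789 carry 1 gene symbol in the platform annotation, 1621 carry several and 12146 are not listed. Each of 19938 symbols was represented by its cluster of highest mean, and 8154 genes below the level filter of 4.91 were not tested. All 15 arrays entered 1 linear model of group means in limma 3.58.1 in R 4.3.3 (lmFit and eBayes, 10 residual degrees of freedom), with two-sided contrasts, Benjamini-Hochberg adjustment over 11784 genes, a threshold of 0.05 and 95% intervals. The script was tested on simulated data. The number of arrays limits the precision.

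Named genes are Gata4, Gata5, Gata6, Lct and Fabp6, the 10 largest rises and falls among called genes, the members with the smallest p in each list (at most 4), and the leading genes of each regional class. The members and the 35 lists were chosen with earlier results of these data known. Same-numbered cKO jejunum and wild-type ileum arrays deviated together with correlations of 0.474, 0.257 and 0.058. For wild-type ileum and wild-type jejunum the correlations were 0.334, 0.216 and 0.161, and between the other groups they ran from -0.414 to 0.258. Such values do not establish pairs, and no pairing entered the main model. Alternatives were other level filters, quantile normalization, median centring, the 6 arrays alone, a replicate block, array weights, the mean of clusters, left-out arrays, a threshold of 0.01, control ileum as comparator and other definitions of regional genes.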

Additional observations from a re-analysis of the deposited data

How the results depend on the processing

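Without 1 of the 6 arrays in turn, genes higher than wild-type ileum ranged from 174 to 420 and lower from 103 to 216. Jejunum-high genes ranged from 95 to 183 called higher, 3 to 9 called lower and 211 to 269 not called and within 2-fold; ileum-high genes ranged from 29 to 47 called lower, 2 to 6 called higher and 341 to 358 within 2-fold. The fit of the 6 arrays alone called 209 higher and 90 lower; it gives no regional counts, since regional genes need other arrays. With the replicate number as a block, 348 were higher and 193 lower over all arrays, and 447 and 185 in the 6 arrays alone; the numbers were not taken to pair cKO jejunum with wild-type ileum. Wild-type jejunum against wild-type ileum gave 1546 higher and 916 lower genes with the replicate block over all arrays. At a threshold of 0.01 there were 165 higher and 62 lower genes, 98 and 3 among jejunum-high genes and 23 lower and 2 higher among ileum-high genes. With control ileum as comparator, which also chose the regional genes, 1233 were higher and 2436 lower; jejunum-high genes had 323 higher, 5 lower and 142 within 2-fold, and ileum-high genes 345 lower and 97 within 2-fold. Regional genes of at least 4-fold had 65 higher, 3 lower and 34 within 2-fold (jejunum-high) and 14 lower, 1 higher and 33 within 2-fold (ileum-high). With regional genes taken against wild-type ileum, 210 of 491 jejunum-high genes were higher, 0 lower and 158 within 2-fold. Of 233 ileum-high genes, 66 were lower, 2 higher and 113 within 2-fold. That definition shares the wild-type ileum arrays with the comparison. With the arrays swapped, chosen after seeing the data, 173 of 491 jejunum-high genes were higher, 27 lower and 215 within 2-fold. Of 233 ileum-high genes, 72 were then lower, 21 higher and 104 within 2-fold. Among 201 named genes, 51 changed sign with control ileum as comparator. Of these, 28 were called against neither ileum, and the other 23 were called against at least 1: 5730408K05Rik 1.17, Car1 0.47, Cck -0.05, Clps -1.58, Ddx58 -0.10, Fam151a -0.36, Foxa1 0.46, Fut11 0.28, Gip -0.71, Gm14403 0.22, Macrod2 0.84, Mir196a-1 0.21, Mir6516 3.15, Mptx1 0.04, Papss1 0.33, Pmvk 0.23, Rnu3a 0.35, Slc27a2 -0.03, Slc6a20a -0.01, Snord16a 3.73, Snord38a 3.52, Spdef 0.15 and Zfp36 -0.82. Under any other alternative at most 7 genes changed sign, none of them called. The cause was not tested.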

Other observations

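Pla2g2a, a secreted phospholipase of Paneth cells, differed between arrays of the same group. It read 8.31, 12.86 and 8.73 in wild-type ileum, 7.73, 12.37 and 7.46 in wild-type jejunum, 11.53, 11.88 and 12.59 in cKO jejunum and 9.09, 8.0 and 8.58 in control ileum. Replicate 2 was the high array in both wild-type regions. The difference between cKO jejunum and wild-type ileum was 2.03 (limma, adjusted p = 0.359). The gene was chosen after its values were seen.

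H2-Ea, a class II histocompatibility chain, read 7.15, 6.05 and 6.82 in cKO jejunum, 3.57, 3.88 and 3.81 in wild-type ileum and 4.39, 3.91 and 7.77 in control ileum, where the third array stood with cKO jejunum.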
